A study of Mus musculus with 28 samples.

Results

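Nascent transcription in wild-type (WT) mouse embryonic stem cells (mESCs) was compared between steady state and 10 min after release from flavopiridol (FP). The comparison used 4 of the 28 samples of the series, which were the 2 WT replicates labelled with 5-bromouridine (BrU) for 10 min without drug (steady state) and the 2 WT replicates that were held in 1 µM FP for 60 min, washed, and labelled with BrU for 10 min (10-min recovery). BrU was at 2 mM in both, so the pulse was the same and the groups differed in the preceding block. The labels named the line as CCE28 in the growth protocol and CJ7 in the treatment protocol, grown on mouse embryonic fibroblast (MEF) feeders with LIF and 2 inhibitors (PD0325901 and CHIR99021) and depleted of MEFs before labelling. The other samples were WT at 5 min of recovery, EloA null cells in the same 3 conditions, and 16 libraries of genomic DNA not used here. Of 24980 genes that could be joined by name, 11212 had a mean RPKM (reads per kilobase, scaled to library size) above 0.5 in WT at steady state or in recovery and made up the set described here. Just inside this limit was Cldn15, at 0.500084 RPKM in its higher group, and just outside was Npm2, at 0.499962.

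FP inhibits P-TEFb, the kinase made of CDK9 and cyclin T that phosphorylates RNA polymerase II (Pol II), NELF and DSIF and lets paused Pol II enter the gene body. While the kinase is blocked, Pol II that is already elongating moves on toward the end of the gene and new Pol II stays near the start site. The longest genes need not be cleared within the block. When the drug is washed out, Pol II leaves the pause and moves down genes as a wave, and BrU marks only the RNA made during the pulse, so the signal that a gene shows at a given time depends on how far along it Pol II has come as well as on how many molecules started.

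The libraries held 23896841 and 27923483 reads assigned to genes at steady state and 18820709 and 22057086 in recovery, as recovered from the steps of the RPKM values. The RPKM were densities over introns: with the length of each gene's introns, 96.5% to 96.8% of values above 0.5 RPKM at spliced genes were within 0.05 of a whole read number, against 10.0% to 10.4% with the full gene span. All 6 pluripotency markers (Pou5f1, Sox2, Nanog, Esrrb, Zfp42 and Dppa5a) were above 0.5 RPKM in every library, with sums of 137 to 141 RPKM at steady state and 200 to 229 in recovery, while 7 fibroblast markers of feeders (Col1a1, Col1a2, Col3a1, Thy1, Postn, Lum and Dcn) summed to 1.19 to 1.496 and 1.97 to 2.50, with 0 to 2 of 7 above 0.5 in a library.

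RPKM is a share of each library, and the steady-state and recovery libraries were scaled in separate tables, so each library was centred on the median gene before the test. The whole reads recovered with 1 set of gene lengths in every table leave only a constant factor per library between them. Since 0.1 RPKM was added before the log, the centring removes this factor at genes well above 0.1 RPKM and only in part at genes near it. A positive difference therefore means more than the median gene and not more RNA per cell, and in bulk samples fewer transcribing cells and less nascent RNA per cell could not be told apart. Before centring, the 2 recovery libraries lay 0.16 and 0.03 above the steady-state mean on the log2 scale. The labels gave no batch or date, and treatment and sample table went together, so an effect of the table could not be told apart from that of the treatment. The labels number the replicates but do not say that they came from separate cultures, so the p-values measure the spread between the samples fitted. For single genes, this spread was pooled over the 8 libraries with a 10-min pulse, which include those labelled EloA null. Differences below are on the centred log2(RPKM + 0.1) scale, recovery minus steady state, and genes were called at an adjusted p under 0.05 (limma, Benjamini-Hochberg) and at least 1.5-fold.

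At 10 min after release, the WT transcriptome was far from its steady-state proportions. Of 11212 genes tested, 3199 (28.5%) were called higher and 3024 (27.0%) lower in recovery, and the median size of the difference was 0.72. Of the calls 51.4% were higher, a split that was 63.9% with a pseudocount of 1 and 35.9% when libraries were centred on genes under 10 kb, which moved the median of all genes to -0.27. Among the 9261 genes above 0.5 RPKM in both groups, 2938 were called higher and 1738 lower, whereas 1533 genes passed the limit only at steady state and 418 only in recovery so that these had to differ. In the plot of mean RPKM, the genes that overshot (Pigz, Hist1h2bc, Dtnbp1) and those that stayed low (Lcor, Kctd4, Cntf) lay far on both sides of the diagonal.

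**Figure D1:**
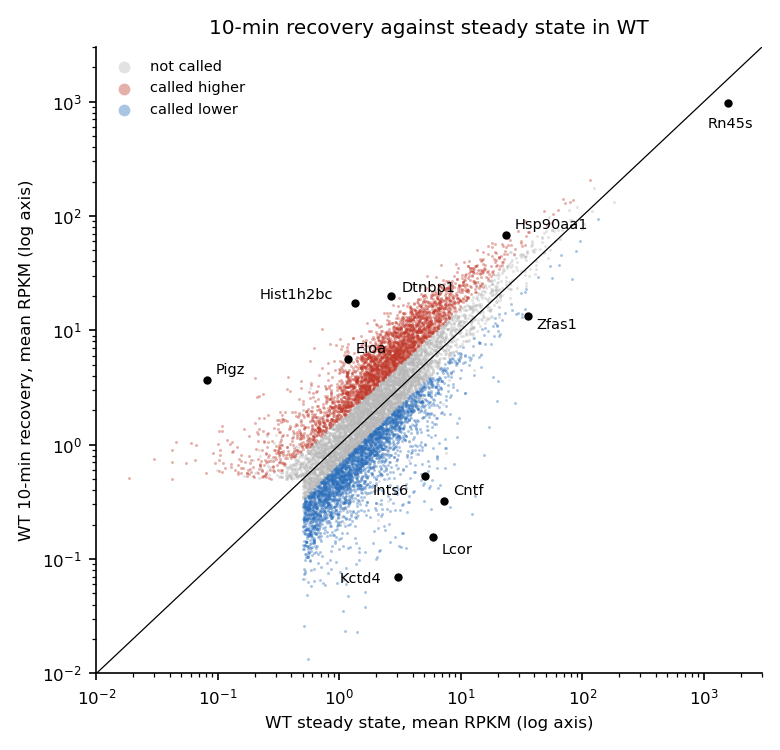
Mean RPKM of each gene in WT at steady state (x axis, log scale) against WT at 10-min recovery (y axis, log scale), each the mean of 2 libraries and as deposited, before centring; red and blue points are genes called higher and lower, grey points were not called, and the line marks equal RPKM. Genes at 0 in either group are not drawn. Hist1h2bc and Pigz stand above the line, and Lcor, Kctd4 and Cntf below it.

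The difference followed gene length and was not monotonic. Genes of 10 to 15 kb stood highest, with a median difference of 0.69 over 1177 genes, of which 649 were called higher and 129 lower. Genes of 5 to 10 kb and 15 to 20 kb had medians of 0.63 and 0.59. The median was 0.23 at 2 to 5 kb, 0.06 at 1 to 2 kb and -0.31 under 1 kb. The class under 1 kb (926 genes) holds many of the 638 tested microRNA genes (median length 0.08 kb), of which only 12 had 100 reads. On the long side the median passed through -0.06 at 30 to 40 kb and reached -0.81 at 60 to 100 kb, where 636 of 1020 genes were called lower and 28 higher. Beyond 200 kb it was -0.36, nearer to the median gene than at 60 to 200 kb. Over genes, Spearman's rho of length with the difference was -0.30 (n = 11176), and -0.54 among the 7540 genes of at least 10 kb, as a description, since genes are not independent replicates.

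Both recovery libraries showed this course. At 10 to 15 kb the median deviation from the steady-state mean was 0.70 and 0.66 in the 2 recovery libraries, against 0.03 and -0.03 at steady state, and at 60 to 100 kb it was -0.83 and -0.75 against -0.04 and 0.04. The contrast of 2071 genes over 60 kb with 3636 genes under 10 kb was -0.04 and 0.04 at steady state and -1.06 and -0.92 in recovery. The recovery libraries lay below both steady-state libraries without overlap, by -0.99 ± 0.08 (SE, n = 2 per group), with a two-sided exact permutation p of 0.333, the smallest that 2 against 2 can give.

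**Figure D2:**
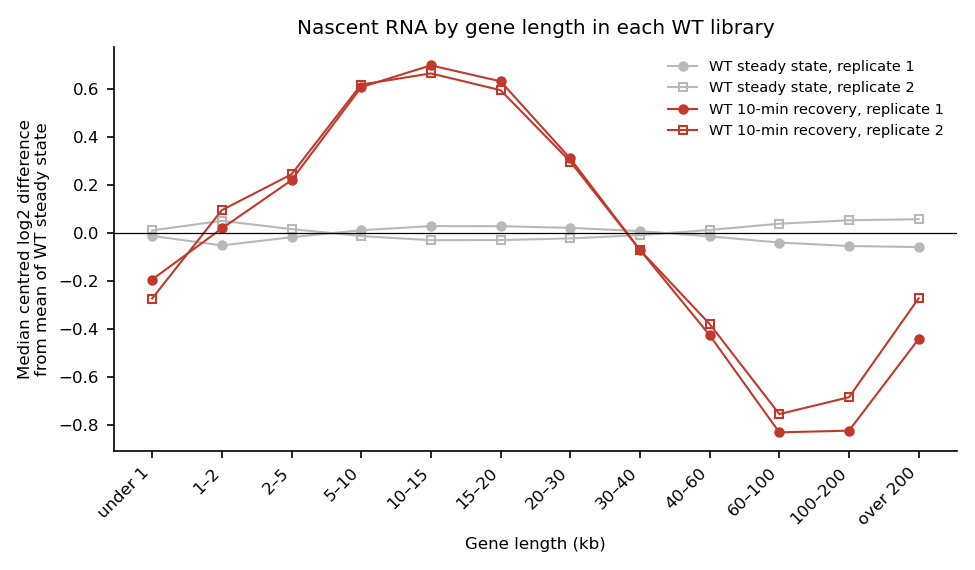
Median centred log2 difference from the mean of the WT steady-state libraries (y axis) for genes grouped by length in kb (x axis), drawn for each of the 4 WT libraries. Both recovery libraries peak at 0.66 to 0.70 for genes of 10 to 15 kb and are lowest at 60 to 200 kb, while the steady-state libraries stay within 0.06 of 0.

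The largest rise was at Pigz, a gene with little signal at steady state. Pigz (an enzyme of GPI anchor synthesis, chr16:31926965-31946048, 19.1 kb) had RPKM of 0.0961 and 0.0679 at steady state and 3.97 and 3.31 in recovery. Its difference was 4.27 ± 0.14 (SE), adjusted p = 4.3e-05, the highest of the 9289 genes of at least 1 kb that had 100 or more reads in their higher group and were not small RNA genes. Hist1h2bc, a histone H2B gene, had 1.53 and 1.18 RPKM at steady state and 18.1 and 16.5 in recovery (3.50). Its RPKM covers the 1 intron within an annotated span of 8.28 kb, and not its exons. The groups did not overlap at Pigz or Hist1h2bc, but Pigz passed the RPKM limit only through recovery, so its direction was fixed in advance.

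The next were Tbx3os2, a noncoding RNA opposite the pluripotency gene Tbx3, with 0.402 and 0.352 RPKM at steady state and 3.92 and 3.92 in recovery (2.99), and Mcmdc2, a gene of meiotic recombination, with 0.878 and 0.798 RPKM at steady state and 6.97 and 8.14 in recovery (2.94). Mcmdc2 overlaps Snhg6 on the opposite strand, a snoRNA host that was at 32.3 and 31.5 RPKM at steady state and 43.0 and 47.8 in recovery. Gpr75, an orphan receptor gene, went from 0.545 and 0.605 to 4.71 and 6.17 RPKM (2.94). It lies within the outer annotated span of Erlec1 (91.6 kb), on the opposite strand and 58296 bases from its start. Erlec1 also rose, from 3.06 and 2.89 to 6.19 and 5.35 RPKM (0.84). At 1524 to 2465 reads per library, the Erlec1 introns counted cover less than that distance, so Gpr75 may lie outside them. The remaining members of the 10 highest were Scrg1 (2.91), the zinc finger gene Zfp345 (2.84), 1700110C19Rik (2.79), Dtnbp1 (2.78) and the bile acid conjugating enzyme gene Baat (2.70). Of these, 1700110C19Rik lies within 10 kb after Cahm and Baat within 10 kb after Mrpl50, each on the same strand, and these neighbours rose as well, Cahm from 1.47 and 1.49 to 5.04 and 4.71 RPKM (1.56) and Mrpl50 from 1.93 and 2.13 to 6.61 and 8.06 (1.71). At each of the 10 both recovery libraries were above both steady-state libraries, but the 10 were picked for their rise. Pigz, Tbx3os2, Scrg1 and Baat passed the RPKM limit only through recovery, so they had to differ.

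Dtnbp1 stood out by its length. It encodes dysbindin, a subunit of the BLOC-1 complex of lysosome-related organelles, and spans 80.018 kb (chr13:44922079-45002096), a class in which 28 of 1020 genes were called higher. RPKM was 2.76 and 2.58 at steady state and 20.3 and 19.8 in recovery, a difference of 2.78 ± 0.09 (SE), adjusted p = 4.3e-05. Against genes of its own length, by subtracting the median of its length bin in each library, it was 3.58 ± 0.08 (SE), adjusted p = 4.2e-05, the highest of genes over 60 kb within the read limit. The other 4 long genes highest by that measure were the transporter gene Svopl (3.30), Spink10 (3.21), the matrix gene Matn2 (3.06) and Wnt5b, a Wnt ligand (2.43). Fbxl14, inside Wnt5b, rose from 1.55 and 2.08 to 5.70 and 5.68 RPKM (1.52). Except for Dtnbp1, all of the 5 long genes were at or under 0.506 RPKM at steady state. They passed the RPKM limit only through recovery, so their rise was fixed in advance. At Dtnbp1, picked for its rise, the recovery libraries also lay above the steady-state libraries.

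The gene that fell most was Lcor, a ligand-dependent corepressor of nuclear receptors (chr19:41482682-41596161, 113 kb). Its RPKM was 5.30 and 6.54 at steady state and 0.155 and 0.157 in recovery, a difference of -4.64 ± 0.20 (SE), adjusted p = 4.3e-05, and -3.80 after length adjustment. Glce (65.4 kb), an epimerase of heparan sulfate synthesis, fell from 3.09 and 3.43 to 0.158 and 0.182 RPKM (-3.73), and Zfp992 (20.4 kb) from 6.24 and 6.82 to 0.464 and 0.374 (-3.77). At none of the 3 did the groups overlap, but all 3 passed the RPKM limit only at steady state and so had to differ.

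The other 7 of the 10 largest falls were at genes of 2.10 to 27.0 kb. Kctd4 (10.215 kb) fell from 2.77 and 3.33 to 0.0516 and 0.0881 RPKM, by 4.30 ± 0.18 (SE), adjusted p = 4.3e-05. The neurotrophic factor gene Cntf (2.10 kb) was at 7.42 and 7.19 RPKM at steady state and 0.295 and 0.352 in recovery (-4.22), and the lens crystallin gene Cryba1 (6.68 kb) at 2.98 and 3.16 RPKM at steady state and 0.132 and 0.128 in recovery (-3.87). B3galt2 (-3.76), Gpr22 (-3.73), Gm16982 (-3.67) and Far1os (-3.93) completed the list, with 1 to 60 reads in the lowest library of each. In all 7 both recovery libraries lay below both steady-state libraries, but all 7 passed the RPKM limit only at steady state and so had to differ. After length adjustment the 5 lowest genes under 10 kb were B3galt2 (-4.42), Gpr22 (-4.41), Cryba1 (-4.40), Cntf (-4.33) and the noncoding gene E030024N20Rik, which was at 1.57 and 1.67 RPKM at steady state and 0.0251 and 0.0784 in recovery (-4.14).

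**Figure D3:**
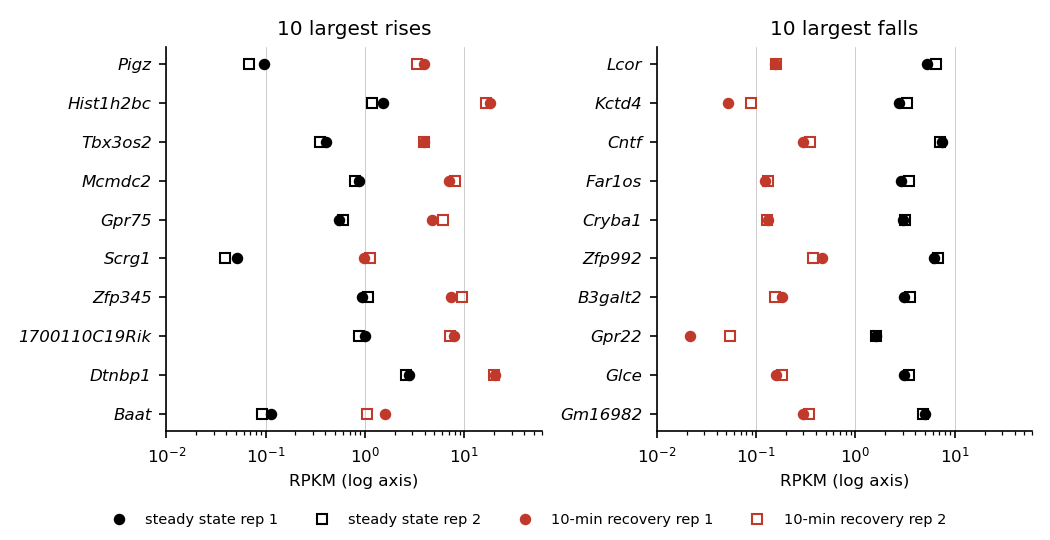
RPKM (x axis, log scale) in each of the 4 WT libraries for the 10 genes with the largest rise (left) and the 10 with the largest fall (right) among genes of at least 1 kb with 100 or more reads; black, steady state, red, 10-min recovery, circles and squares, replicates 1 and 2. In every row the red and black points are apart, at genes picked for this difference.

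Of these 7 genes, 5 lay inside a longer gene on its opposite strand. Kctd4 is inside Gtf2f2, 45648 bases from the start of that gene, B3galt2 inside Cdc73 (52956 bases), Gpr22 inside Cog5 (52048 bases), Gm16982 inside Ap2a2 (47886 bases) and Far1os inside Far1 (24307 bases). Cntf is annotated within Gm44505 on the same strand, and Cryba1 overlapped no other gene. Of the hosts, Gtf2f2, a general transcription factor gene, fell from 3.44 and 3.75 to 1.95 and 2.00 RPKM (-0.92), and Ap2a2 (-0.97) and Far1 (-0.94) fell too. Cdc73 (-0.58), Cog5 (-0.37) and Gm44505 (-0.12) were not called. Gnaq, which holds E030024N20Rik, fell (-0.64). The library kit marked strand, but whether strand was used in counting is not given in the sources used here, and without strand the reads of a nested gene and of its host cannot be told apart.

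Position was then tabulated for all genes of 1 to 10 kb within the read limit, a grouping made after the values above had been seen. Hosts were taken by their outer annotated spans, which at some genes exceed the introns counted. The 782 genes apart from any other gene had a median difference of 0.71, with 448 called higher and 46 lower. The 44 genes inside a gene of the opposite strand, 30 kb or more from its start, had a median of -0.54, with 9 higher and 22 lower, at about the same median length (5.33 against 6.19 kb). These are 20.5% and 50.0%, against 28.5% and 27.0% of all genes tested and 51.1% and 12.1% of all tested genes of 5 to 10 kb. The 44 include B3galt2, Gpr22 and Gm16982, whose falls prompted the grouping and which passed the RPKM limit only at steady state. The median of the 44 was -0.65 and -0.55 in the 2 recovery libraries. Opposite-strand genes closer than 30 kb to the host's start lay between, at 0.27 (54 genes), and 419 genes within 10 kb after a same-strand gene were at 0.63. Genes inside a same-strand gene 30 kb or more from its start were also below genes apart, at 0.07 (17 genes, 4 higher and 6 lower), and those nearer to its start were at 0.67 (29 genes). Genes that only overlapped another were at 0.57 (403 on the opposite strand) and 0.60 (35 on the same strand). The difference between these classes was not tested.

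**Figure D4:**
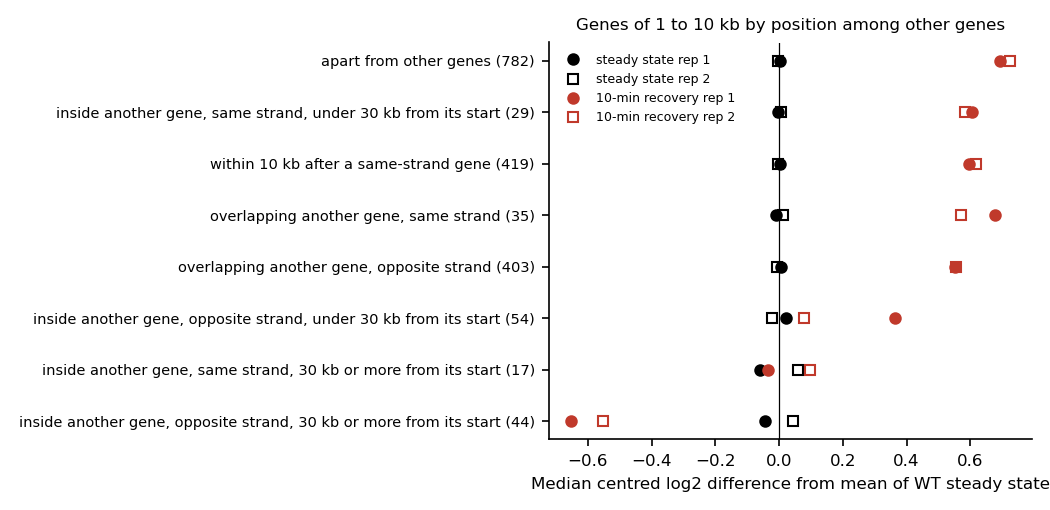
Median centred log2 difference from the mean of the WT steady-state libraries (x axis) for genes of 1 to 10 kb, grouped by where they lie relative to other genes (y axis, number of genes in brackets); points are the 4 WT libraries. Genes inside an opposite-strand gene and 30 kb or more from its start are at -0.65 and -0.55 in recovery, and genes apart from others at 0.69 and 0.72.

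Eed and Dhx9 serve as examples of single genes of middle length. Eed, a subunit of the Polycomb complex PRC2 (26.3 kb), was at 16.5 and 15.9 RPKM at steady state and 33.5 and 31.8 in recovery, a difference of 0.92 ± 0.07 (SE), adjusted p = 9.1e-05. Dhx9, an RNA helicase gene (31.9 kb), was at 25.9 and 26.3 RPKM at steady state and 40.8 and 42.1 in recovery, a difference of 0.58 ± 0.10 (SE), adjusted p = 0.00255, which was below the 1.5-fold limit. At both genes the 2 recovery libraries were above the steady-state libraries, and after length adjustment the differences were 0.60 and 0.63, both called, but neither was called without WT_B10 replicate 1 (0.58 and 0.56) or without WT_FB10 replicate 2 (0.58 and 0.55).

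Among gene families, the genes of the proteasome, the protease that degrades ubiquitin-tagged proteins, stood highest. Of 36 subunit genes tested, 28 were called higher and 2 lower, with a median of 1.41, against 28.5% higher, 27.0% lower and a median of 0 over all genes. Psmd2, of the regulatory particle, was at 2.08 and 1.96 RPKM at steady state and 9.24 and 10.198 in recovery (2.12 ± 0.12 (SE), adjusted p = 5.2e-05). The ATPase subunit gene Psmc2 followed with 2.74 and 2.68 RPKM at steady state and 11.3 and 11.8 in recovery (1.97) and the core subunit gene Psma2 with 4.22 and 4.05 RPKM at steady state and 15.6 and 18.8 in recovery (1.94). At none of the 3 did the groups overlap, but they were picked for their rise. Groups were also apart at genes that were not called, such as Sox2 and Ier2. The 2 called lower were Psmb10, an immunoproteasome subunit at 1 to 20 reads per library whose call was lost without WT_B10 replicate 1 (-1.37) or WT_FB10 replicate 1 (-0.90), and the assembly chaperone gene Psmd9 (-0.66). Proteasome genes had a median length of 12.8 kb, within the range that stood high, and relative to genes of equal length their median was 0.91, with 27 of 36 called higher and 2 lower, where 20.5% of all genes were called higher and 22.4% lower. These shares over all genes, before and after length adjustment, are the background for each family count below.

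Genes for mitochondrial respiration and translation also stood high. Of 88 oxidative phosphorylation genes 60 were called higher and 3 lower, with a median of 1.05 (0.54 after length adjustment). Ndufb6, a complex I subunit, was highest, at 1.64 and 1.46 RPKM at steady state and 7.46 and 8.74 in recovery (2.22 ± 0.15 (SE), adjusted p = 6.3e-05), while Ndufaf2, a complex I assembly factor of 106 kb, fell from 1.04 and 1.10 to 0.510 and 0.463 (-1.08). Of 78 mitochondrial ribosomal protein genes 46 were called higher and 5 lower, with a median of 0.84 (0.39 after adjustment). Mrpl46 rose from 1.79 and 1.89 to 8.82 and 7.95 RPKM (2.04), and Mrps28, 122 kb long, fell from 1.95 and 2.45 to 0.614 and 0.648 (-1.73). In both families the member that fell most was over 100 kb long. After length adjustment Mrps28 was still called lower (-0.90) and Ndufaf2 was not (-0.25). Short mitochondrial ribosomal protein genes were called lower too, such as Mrps34 (1.17 kb, -1.09) and Mrpl54 (2.2 kb, -0.75).

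Cytosolic ribosomal protein genes, by contrast, stayed near the median gene. Of 87 tested, 7 were called higher and 9 lower, and the median was 0.01, a sign that turned when libraries were centred on genes under 10 kb. Rps27l rose from 4.44 and 4.11 to 9.49 and 10.214 RPKM (1.10), and Rpl5, which together with the 5S rRNA binds MDM2, was at 0.96. Rpl36 was lowest, at 3.53 and 3.26 RPKM at steady state and 1.53 and 0.704 in recovery (-1.70 ± 0.61 (SE), adjusted p = 0.0436), on 7 to 41 reads per library, and its call was lost without either steady-state library (-1.66 and -1.73) or without WT_FB10 replicate 2 (-1.25). These genes are short (median 3.14 kb), and relative to genes of their own length the median was -0.22, with 3 called higher and 18 lower.

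**Figure D5:**
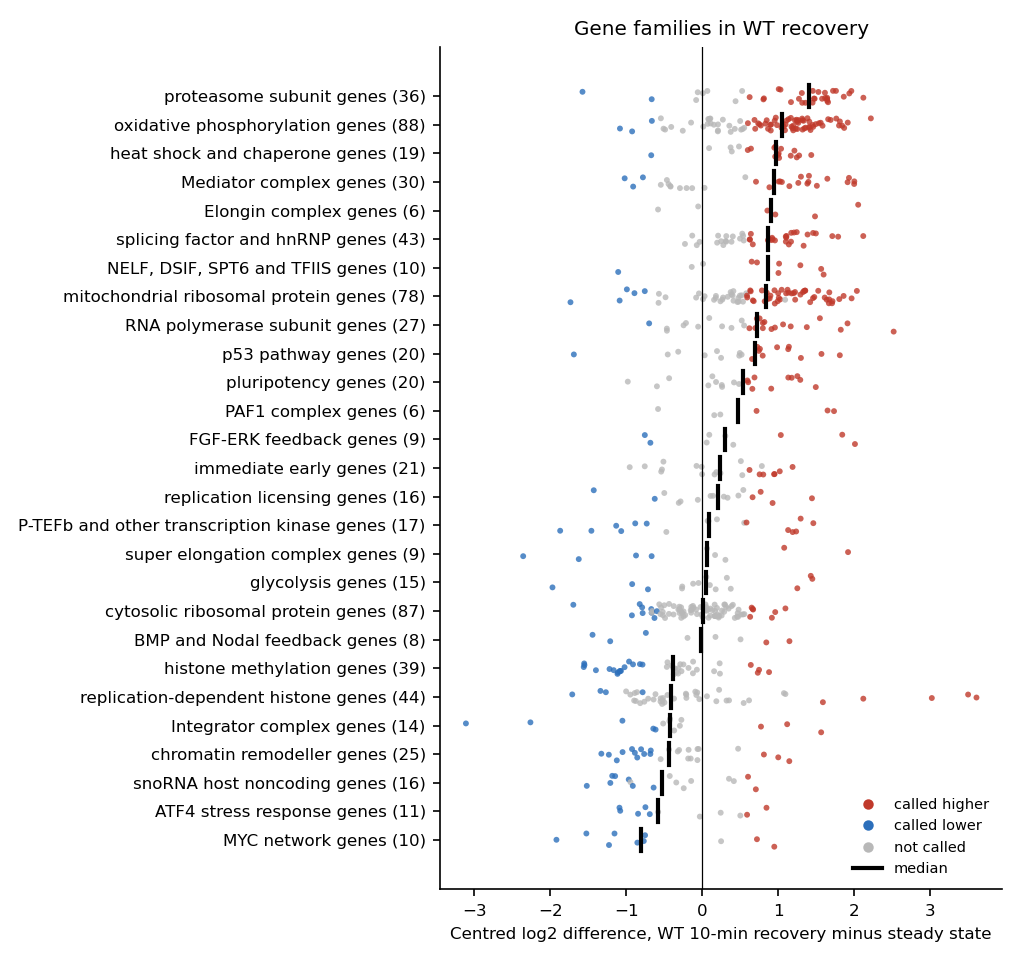
Centred log2 difference between WT 10-min recovery and steady state (x axis) for each tested member of the gene families with at least 6 tested members (y axis, number tested in brackets); red, called higher, blue, called lower, grey, not called, and black bars mark the medians. Proteasome genes have the highest median, 1.41, and MYC network genes the lowest, -0.81.

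Promoter sequence was looked at for families that moved together. The 250 bases before the start of each gene were taken from a RefSeq table (GRCm38.p6), at the first start it lists for the gene, and searched on both strands for CCGGAAG (the core bound by ETS factors), GGGCGG (the GC box) and TATAAA (the TATA box). The sequences of the highest proteasome, oxidative phosphorylation and mitochondrial ribosomal protein genes, of Eloa and of Lcor, the gene that fell most, are shown 5′ to 3′ with matches to any of the 3 motifs on either strand in capitals. They lie at chr16:20651402-20651651 on the plus strand (Psmd2), chr4:40279422-40279671 on the minus strand (Ndufb6), chr7:78783090-78783339 on the minus strand (Mrpl46), chr4:136021650-136021899 on the minus strand (Eloa) and chr19:41482432-41482681 on the plus strand (Lcor). For Psmd2 the table's start lies 530 bases inside the outer start of the gene's span, so its sequence precedes an inner start, while for the other 4 the starts are the same base. Over the 8392 tested genes with an entry the starts were the same at 4661 (55.5%) and lay inside the span at the other 3731.
Psmd2: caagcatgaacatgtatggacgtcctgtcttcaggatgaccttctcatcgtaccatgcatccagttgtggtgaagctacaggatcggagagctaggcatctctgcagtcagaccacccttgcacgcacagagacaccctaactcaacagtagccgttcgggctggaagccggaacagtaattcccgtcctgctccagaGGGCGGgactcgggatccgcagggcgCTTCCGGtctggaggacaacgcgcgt
Ndufb6: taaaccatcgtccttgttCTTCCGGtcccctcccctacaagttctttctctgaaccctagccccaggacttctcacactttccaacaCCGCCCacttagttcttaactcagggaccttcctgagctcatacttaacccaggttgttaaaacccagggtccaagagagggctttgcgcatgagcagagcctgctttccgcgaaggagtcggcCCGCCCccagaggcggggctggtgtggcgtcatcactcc
Mrpl46: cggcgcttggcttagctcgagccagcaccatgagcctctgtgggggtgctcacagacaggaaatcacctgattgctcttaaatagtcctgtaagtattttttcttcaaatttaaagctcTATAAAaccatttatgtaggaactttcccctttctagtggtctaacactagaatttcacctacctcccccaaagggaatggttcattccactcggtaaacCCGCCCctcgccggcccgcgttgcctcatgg
Eloa: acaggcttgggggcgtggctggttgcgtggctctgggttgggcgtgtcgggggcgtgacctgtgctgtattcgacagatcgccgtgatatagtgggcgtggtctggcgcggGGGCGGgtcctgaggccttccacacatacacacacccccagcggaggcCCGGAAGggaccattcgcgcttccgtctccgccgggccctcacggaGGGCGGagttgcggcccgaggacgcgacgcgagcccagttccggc
Lcor: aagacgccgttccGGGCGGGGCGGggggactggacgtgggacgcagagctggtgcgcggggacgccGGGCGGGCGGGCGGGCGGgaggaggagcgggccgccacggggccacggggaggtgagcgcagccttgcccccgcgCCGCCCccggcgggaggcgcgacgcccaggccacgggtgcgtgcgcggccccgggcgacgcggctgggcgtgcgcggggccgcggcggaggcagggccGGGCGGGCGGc
Psmd2, Ndufb6 and Eloa each held 1 match to CCGGAAG, with 1, 2 and 2 matches to GGGCGG. Mrpl46 held 1 match to GGGCGG and 1 to TATAAA, and Lcor held 9 matches to GGGCGG and none to the others, with 9 bases in more than 1 match.

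CCGGAAG was in 7.05% of the 27025 promoters searched, in 15.9% of the 8392 tested genes among them, in 21.1% of those called higher and in 10.18% of those called lower. It was in 8 of 29 proteasome promoters, 13 of 75 oxidative phosphorylation promoters and 17 of 69 mitochondrial ribosomal protein promoters. It was also in 19 of 65 cytosolic ribosomal protein promoters, a family that stayed near the median gene. GGGCGG was in 56.4% of promoters of genes called higher and 62.5% of those called lower, near the 59.35% of tested genes (all promoters searched, 32.9%). TATAAA was in 6.32% and 6.66%, near the 6.21% of tested genes (all promoters searched, 13.0%). These shares are descriptions and a match is not evidence of binding.

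The machinery of elongation itself was split by gene. Eloa, which encodes Elongin A (chr4:136003370-136021649, 18.3 kb), was at 1.18 and 1.16 RPKM at steady state and 4.65 and 6.51 in recovery, a difference of 2.06 ± 0.18 (SE), adjusted p = 0.000137 and of 1.48 after length adjustment. Its partner Eloc was at 10.074 and 8.52 RPKM at steady state and 27.1 and 28.6 in recovery (1.49), and Elob at 6.14 and 6.32 RPKM at steady state and 6.72 and 6.09 in recovery (-0.05, adjusted p = 0.587). Of the 6 genes of Elongin and its partners 4 were called higher and 0 lower, the others being the exonuclease gene Rexo1 (0.96) and the ligase subunits Rnf7 (0.86) and Cul5 (-0.58, below the fold limit). In the cells labelled EloA null, Eloa introns gave 1.96 and 1.89 RPKM at steady state and 8.74 and 8.93 in recovery, so intron density does not check that label.

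Genes for the factors that hold or release paused Pol II rose more often than they fell. Of 10 genes for NELF, DSIF, SPT6 and TFIIS, 7 were called higher and 1 lower (median 0.86), against 5 higher and 2 lower after length adjustment, median 0.59. The DSIF subunit genes Supt4a and Supt5 were among them, Supt4a going from 3.21 and 2.68 to 8.84 and 10.6 RPKM (1.60 ± 0.14 (SE), adjusted p = 0.000127) and Supt5 from 2.26 and 2.26 to 4.49 and 5.42 (1.01). The one that fell was Tcea3, a TFIIS gene, from 1.26 and 1.10 to 0.581 and 0.490 (-1.10). Of 6 genes for PAF1, a complex that travels with elongating Pol II, 3 rose and 0 fell (median 0.48), against 3 higher and 0 lower after length adjustment, median 0.64, led by Paf1 itself from 1.59 and 1.42 to 5.85 and 5.32 RPKM (1.74).

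Genes for P-TEFb and other kinases of Pol II were divided, with 35.3% called higher and 35.3% lower, against 28.5% and 27.0% of all genes. Of 17 genes 6 rose and 6 fell, with a median of 0.09 whose sign turned when libraries were centred on genes under 10 kb, against 6 higher and 3 lower after length adjustment, median 0.07. Cdk9, the kinase that FP targets (7.003 kb), rose from 4.80 and 3.72 to 10.9 and 11.5 RPKM (1.30 ± 0.15 (SE), adjusted p = 0.000350), as did its cyclins Ccnt1 (1.24) and Ccnt2 (1.13) and, highest, the kinase gene Cdk11b, from 3.06 and 2.84 to 8.25 and 9.46 (1.46). The 5 called genes of 72.1 kb or more, Cdk12 (-1.87), Cdk19 (-1.46), Cdk13 (-1.13), Mnat1 (-0.88) and Cdk8 (-0.73), all fell. Hexim1, the inhibitor of P-TEFb, was at 2.12 and 2.43 RPKM at steady state and 2.63 and 2.48 in recovery (0.07, adjusted p = 0.698), and Mepce, which caps the 7SK RNA, fell (-1.06) although it spans only 4.80 kb.

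The super elongation complex joins P-TEFb to elongation factors. Of 9 tested, 2 rose and 4 fell, at a median of 0.07 that became negative when libraries were centred on genes under 10 kb, against 3 higher and 2 lower after length adjustment, median 0.38. Eaf1 rose from 5.41 and 4.46 to 21.6 and 18.7 RPKM (1.92). Ell2 (64.9 kb) fell from 2.71 and 2.94 to 0.494 and 0.521 (-2.36 ± 0.11 (SE), adjusted p = 4.3e-05) and was still at -1.63 relative to genes of its length. Ell3 (3.58 kb) fell as well, from 0.980 and 0.876 to 0.249 and 0.260 RPKM (-1.62), so both short and long members were among those that fell. Subunit genes of Mediator rose in 17 and fell in 3 of 30 (median 0.95), against 13 higher and 2 lower after length adjustment, median 0.34, from Med19 (2.72 and 2.42 to 11.0 and 11.6 RPKM, 2.00) to Med13 (4.01 and 4.43 to 2.03 and 2.31, -1.02). RNA polymerase subunit genes rose in 16 and fell in 1 of 27 (median 0.72), against 10 higher and 1 lower after length adjustment, median 0.41, with Polr2g at 0.988 and 1.06 RPKM at steady state and 5.99 and 7.61 in recovery (2.52) and Polr3e at 5.88 and 5.33 RPKM at steady state and 4.00 and 3.31 in recovery (-0.70).

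Integrator, the complex that ends transcription of snRNAs and of paused Pol II, held a gene that fell strongly. Of its 14 genes 3 rose and 5 fell (median -0.43), against 2 higher and 4 lower after length adjustment, median -0.20. Ints6 (chr14:62676325-62761163, 84.8 kb) fell from 4.66 and 5.42 to 0.566 and 0.499 RPKM (-3.11 ± 0.12 (SE), adjusted p = 4.3e-05, -2.31 after length adjustment). Ints3 (42.3 kb) fell from 4.00 and 3.77 to 0.810 and 0.760 (-2.26), while Ints12 rose from 2.12 and 2.24 to 7.37 and 6.82 (1.57). At each of these 3 genes the groups were apart, but the genes were picked for their difference.

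The MYC network had the lowest median of the lists. In this network of transcription factors that pair with MAX or MLX, 7 of 10 genes fell and 2 rose (median -0.81, -0.98 after length adjustment). Mxi1 (63.2 kb), a MAX partner that opposes MYC, fell from 1.49 and 1.37 to 0.331 and 0.329 RPKM (-1.92 ± 0.09 (SE), adjusted p = 4.3e-05). Shorter members fell too, such as Mxd3 (4.73 kb, -0.85) and Mycl (6.90 kb, -0.77), and the 2 that rose were Max (0.72) and Mlx, from 1.84 and 1.91 to 4.85 and 3.22 RPKM (0.95). Myc itself was below the RPKM limit, at 0.430 and 0.477 at steady state and 0.364 and 0.345 in recovery, and was not tested.

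In the ATF4 response to amino acid and endoplasmic reticulum stress, 5 of 11 genes fell and 2 rose (median -0.58), against 0 higher and 6 lower after length adjustment, median -0.80. Ddit3, which encodes CHOP, fell from 4.15 and 3.65 to 2.53 and 1.42 RPKM (-1.09 ± 0.21 (SE), adjusted p = 0.00344), and Slc3a2, an amino acid transporter subunit, rose from 4.30 and 3.98 to 7.35 and 8.73 (0.85). Ddit3 overlaps Mars1 on the opposite strand. Chromatin remodeller genes fell in 11 and rose in 3 of 25 (median -0.44), between Srcap (6.28 and 7.09 to 2.74 and 2.80 RPKM, -1.33) and Smarce1 (3.27 and 3.27 to 7.67 and 8.01, 1.15). These are long genes (median 77.8 kb), and after length adjustment their median was 0.03. Histone methylation genes fell in 16 and rose in 4 of 39 (median -0.38, -0.26 after adjustment), from the H3K36 methyltransferase gene Nsd1 (6.64 and 6.77 to 2.34 and 2.37 RPKM, -1.56) to the H4K20 methyltransferase gene Kmt5a (2.15 and 2.05 to 4.12 and 4.29, 0.88).

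Noncoding hosts of snoRNAs stayed low as well. Of 16 tested, 7 fell and 2 rose (median -0.53, -0.78 after length adjustment). Zfas1 fell from 36.0 and 35.8 to 14.4 and 12.2 RPKM (-1.52 ± 0.11 (SE), adjusted p = 7.6e-05), along with Snhg5 (-1.21), Snhg8 (-1.18) and Snhg3 (-1.14). Snord12, a snoRNA that lies within Zfas1, fell from 82.4 and 80.3 to 28.2 and 28.2 (-1.62). Snhg10 was the highest, at 1.51 and 1.99 RPKM at steady state and 3.13 and 3.03 in recovery (0.71), a call that was lost without WT_B10 replicate 1 (0.50).

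Chaperone and p53 pathway genes rose more often than they fell. Of 19 heat shock and chaperone genes 14 rose and 1 fell (median 0.97), against 7 higher and 0 lower after length adjustment, median 0.47. Hsp90aa1, the inducible HSP90, went from 24.7 and 22.6 to 70.5 and 66.2 RPKM (1.44 ± 0.09 (SE), adjusted p = 6.1e-05), and the reticulum chaperone gene Hspa5 from 6.88 and 6.65 to 16.2 and 17.5 (1.22). The one called lower was Hspb1 (-0.67), on 19 to 37 reads per library, and it was not called without WT_B10 replicate 1 (-0.58). Of 20 genes of the p53 pathway 11 rose and 1 fell (median 0.69), although after length adjustment the counts were 5 and 2 at a median of 0.13.

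Mdm2, the ligase that degrades p53, rose from 12.2 and 10.6 to 34.3 and 38.2 RPKM (1.57), and Trp53inp1 from 11.7 and 9.60 to 39.5 and 40.3 (1.81). Cdkn1a, the cell cycle inhibitor p21, rose from 3.41 and 3.75 to 6.52 and 6.53 (0.76), but at 0.10 was not called relative to genes of its length. The long gene Sesn1 (97.9 kb) fell from 1.54 and 1.64 to 0.522 and 0.400 (-1.69). Splicing factor and hnRNP genes rose in 26 and fell in 0 of 43 (median 0.87), against 12 higher and 1 lower after length adjustment, median 0.40, with Hnrnpul2 highest at 6.10 and 6.26 RPKM at steady state and 27.3 and 30.7 in recovery (2.12).

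Immediate early genes respond within minutes to growth signals. Of 21 tested, 7 rose (33.3%, against 28.5% of all genes) and 0 fell (against 27.0%). Their median of 0.24 turned negative when libraries were centred on genes under 10 kb. After length adjustment 1 was called higher and 2 lower, at a median of -0.11. Fos was at 0.294 and 0.726 RPKM at steady state and 0.705 and 0.354 in recovery, with overlapping groups (-0.01, adjusted p = 0.991). Ier2 was at 2.89 and 3.41 RPKM at steady state and 2.41 and 2.23 in recovery (-0.51, adjusted p = 0.0544), and Jun at 0.433 and 0.438 RPKM at steady state and 0.717 and 0.455 in recovery (0.24, adjusted p = 0.278). Egr1 was listed at 0 to 0.234 RPKM in the 4 libraries and was not tested. Cyr61 rose most, from 3.15 and 3.02 to 8.01 and 7.29 RPKM (1.19).

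Of 20 pluripotency genes 10 rose and 0 fell (median 0.54, 0.21 after length adjustment). Klf5 was highest, at 19.5 and 18.4 RPKM at steady state and 56.8 and 57.3 in recovery (1.497 ± 0.10 (SE), adjusted p = 6.1e-05), and Klf4 went from 10.6 and 11.9 to 19.7 and 19.1 (0.69). Pou5f1, which encodes OCT4, was at 7.36 and 8.48 RPKM at steady state and 12.4 and 13.1 in recovery (0.60), just past the limits, and was not called when any of the 4 libraries was left out (0.48 to 0.72). Nanog, at 22.6 and 18.5 RPKM at steady state and 28.7 and 32.5 in recovery (0.49), and Sox2, at 11.5 and 13.2 RPKM at steady state and 16.0 and 15.5 in recovery (0.26), were not called.

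Signalling, metabolic and replication genes were mixed. Over all genes 28.5% were called higher and 27.0% lower (20.5% and 22.4% after length adjustment). The shares called higher were 33.3% (FGF-ERK), 25.0% (BMP and Nodal), 20.0% (glycolysis) and 25.0% (replication licensing). Those called lower were 22.2%, 37.5%, 20.0% and 12.5%. Feedback genes of FGF-ERK signalling rose in 3 and fell in 2 of 9 (median 0.31; 4 higher and 2 lower after length adjustment, median 0.15), from Spry4 (1.38 and 1.46 to 6.60 and 6.25 RPKM, 2.01) to Spred1 (2.29 and 2.71 to 1.56 and 1.51, -0.75), and those of BMP and Nodal in 2 and 3 of 8 (median -0.01, positive without centring; 1 higher and 2 lower after length adjustment, median -0.44), from Smad7 (15.4 and 15.9 to 35.3 and 38.8, 1.15) to Smad6 (1.29 and 1.23 to 0.423 and 0.442, -1.44). Glycolysis genes rose in 3 and fell in 3 of 15 (median 0.06, negative when centred on genes under 10 kb), against 4 higher and 3 lower after length adjustment, median -0.22. Slc2a3, a glucose transporter gene, rose from 12.5 and 11.4 to 32.8 and 37.0 RPKM (1.45), and Pfkl fell from 1.24 and 0.876 to 0.263 and 0.166 (-1.97). The outer annotated span of Slc2a3 is 74.6 kb, and its difference was 2.25 after adjustment for that length. With 3278 reads in its lowest library, the introns counted cover only a small part of this span. The adjusted value may therefore not suit the stretch measured. Replication licensing genes rose in 4 and fell in 2 of 16 (median 0.22, negative when centred on genes under 10 kb), against 3 higher and 6 lower after length adjustment, median -0.20, with Orc6 (5.76 and 5.66 to 14.9 and 18.9 RPKM, 1.45) and Orc5 (4.14 and 4.52 to 1.67 and 1.64, -1.43) at the ends.

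Large families named by symbol sat between these. Over all genes tested 28.5% were called higher and 27.0% lower, near the 30.6% and 27.4% of RIKEN-named genes. After length adjustment the shares over all genes were 20.5% and 22.4%. Zfp zinc finger genes rose in 144 and fell in 45 of 308 (median 0.49), against 91 higher and 55 lower after length adjustment, median 0.13, and held both Zfp345 and Zfp992, which were among the 10 highest and the 10 lowest genes. RIKEN-named genes rose in 147 and fell in 132 of 481 (median 0.14, negative when centred on genes under 10 kb), against 97 higher and 148 lower after length adjustment, median -0.10, from 6330403K07Rik (2.86, on 0 to 3 reads per library and not called without WT_FB10 replicate 1, at 2.81) to 4930455C13Rik, which lies inside Hbs1l on the opposite strand and fell from 2.65 and 3.13 to 0.177 and 0.136 RPKM (-3.63). Opposite-strand noncoding genes rose in 17 and fell in 23 of 68 (median -0.13), against 9 higher and 27 lower after length adjustment, median -0.33, with Tbx3os2 and Far1os at the ends. Replication-dependent histone genes, most of which lack introns and were counted over their exons, rose in 5 and fell in 4 of 44 (median -0.41), against 8 higher and 3 lower after length adjustment, median -0.20, between Hist1h1t (0.114 and 0.292 to 5.06 and 2.65 RPKM, 2 to 70 reads, 3.61) and Hist2h4 (2.94 and 3.26 to 0.830 and 1.06, -1.71). Only 4 of the 44 had 100 reads in the higher group. Hist1h1t lies within 10 kb after Hist1h2bc on the same strand.

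Many small RNA genes lie within the introns of other genes, and their reads cannot be told apart from those of the host. MicroRNA genes rose in 76 and fell in 147 of 638 (11.9% and 23.0%, against 28.5% and 27.0% of all genes, median -0.49). After length adjustment 96 were higher and 115 lower, median -0.17. Only 12 of the 638 had 100 reads in the higher group, so most of these calls rest on few reads. Of those with 100 reads Mir1192, inside Klf9, was highest (1.61) and Mir1894, inside Ppp1r10, lowest (-0.85). Genes for snoRNAs and scaRNAs rose in 20 and fell in 26 of 111 (median -0.06, positive without centring), against 36 higher and 19 lower after length adjustment, median 0.20. Of the 111, 32 had 100 reads, and among them Snora2b, inside Kansl2, was highest (1.80). Rn45s, the Pol I transcript that gives ribosomal RNA, was at 1530 and 1637 RPKM at steady state and 906 and 1028 in recovery, and fell (-0.80 ± 0.15 (SE), adjusted p = 0.00270), and of the 4 Pol I and Pol III transcripts tested 1 rose, Vaultrc5 on 0 to 6 reads (2.73), and 1 fell. The rRNA was depleted before sequencing, and how evenly was not tested. Of 2 nuclear retained RNAs, Neat1 rose from 6.42 and 6.23 to 16.0 and 13.8 RPKM (1.13) and Malat1 was at 125 and 124 RPKM at steady state and 196 and 153 in recovery (0.39, below the fold limit). In a longer list of feeder markers 4 of 13 genes were tested, of which 2 rose, Acta2 (0.345 and 0.399 to 1.10 and 0.821 RPKM, 1.07) and Col1a1 (1.05), and 1 fell, Tagln (-0.64), a call lost when WT_B10 replicate 1, WT_B10 replicate 2 or WT_FB10 replicate 2 was left out (-0.66 to -0.49). Fn1 was at 11.8 and 11.5 RPKM at steady state and 10.190 and 9.56 in recovery (-0.32, below the fold limit). In every library it exceeded the sum of the fibroblast markers given earlier, which did not include it. Whether its signal came from feeders was not tested.

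The recovery of WT was set against that of the cells labelled EloA null in the same fit. The difference between the 2 recoveries had a median size of 0.13, against 0.72 for the WT recovery itself, and 2 genes (0.0178%) were called, while 433 had an unadjusted p under 0.05. At Eloa it was 0.07 ± 0.26 (SE, adjusted p = 1.00), at Psmd2 -0.07, at Ints6 0.18 and at Lcor -0.13, and none of these was called. A steady-state library with an EloA null title carries a wild-type genotype label and was grouped by its title.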

How the data were processed

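Bru-seq measures nascent RNA. RNA labelled with BrU is captured with an anti-BrdU antibody, depleted of rRNA and sequenced. According to the methods and the processing notes of the submitters, reads were aligned to mm10 and dm3 with Bowtie2 2.3.4.3, unique reads were kept with SAMtools, strands were separated, and reads over RefSeq genes were counted with featureCounts 1.6.1. The deposited values are RPKM that the authors computed with edgeR, in 1 table per condition. Drosophila spike-ins were added, and they were not analysed here. The values gave whole reads over introns, or exons for intronless genes, which differs from a count over whole genes.

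Tables were joined by gene name (24980 genes, 155 of them unmatched to RefSeq, and 2 names listed more than once were left out). Genes with a mean above 0.5 RPKM in WT_B10 or WT_FB10 were kept. On log2(RPKM + 0.1), which understates changes of low genes, each library was centred and 4 group means were fitted with limma 3.58.1 (R 4.3.3) over the 8 libraries with a 10-min pulse, with an intensity trend and Benjamini-Hochberg adjustment over all genes tested. Length adjustment took off the median of 20 length bins per library. Length was the outer annotated span of a gene, which at some genes exceeds the stretch whose introns were counted. Read totals for the 8 libraries ran from 18820709 to 28547351, so genes at a few RPKM rest on many reads, but 732 of 6223 called genes had under 100 reads in the higher group.

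Genes were named by rule. They were the 10 largest rises and 10 largest falls and, after length adjustment, the 5 highest over 60 kb and 5 lowest under 10 kb, all among called genes of at least 1 kb with 100 reads. Eed, Dhx9, Eloa, the highest and lowest called member of each list and single regulators were added, and members of a list beyond these were named after their values were seen. The genes, lists and tests were chosen with earlier results of these data known. Alternatives were another pseudocount, RPKM limit, centring, number of length bins, set of libraries, variance prior, the replicate block and leaving out each WT library or EloA_null_B10 replicate 1. The other libraries labelled EloA null were not left out in turn.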

Additional observations from a re-analysis of the deposited data

Results flagged for a closer look

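The difference between the recoveries of WT and of the libraries labelled EloA null was called at 2 microRNA genes, both on 3 reads or fewer per library. At Mir5132 the difference was -3.85. Its RPKM in WT was 1.18 and 1.01 at steady state (2 reads each) and it was listed at 0 in both recovery libraries, while in the libraries labelled EloA null it was 1.22 and 1.01 at steady state and 1.41 and 1.48 in recovery (2 and 3 reads). At Mir7048 the difference was -5.91, with 0.721 and 0.617 RPKM in WT at steady state (1 read each) and 0 in recovery, against 0 at steady state and 0.864 and 0.604 in recovery (1 read each) in the libraries labelled EloA null. No fold is given, since all of these groups lie at or under the level of 3 reads per library.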

How the results depend on the processing

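The reported counts were 3199 genes higher and 3024 lower. With a mean RPKM above 2 the counts were 1558 and 1790, and with a pseudocount of 1 the lower count was 1421. The length-adjusted counts of 2296 higher and 2501 lower became 1060 and 1226 with a mean RPKM above 2, fewer genes being tested, the higher count became 3899 with no limit on RPKM, and the lower count became 1467 with a pseudocount of 1. Leaving out each WT library in turn gave 3112 to 3225 higher and 2879 to 3047 lower, 2072 to 2376 and 2306 to 2632 after length adjustment, and -1.06 to -0.92 for long against short genes, which was -0.59 with a pseudocount of 1 and -1.22 with a mean RPKM above 2. The genotype difference, called at 2 genes (433 at an unadjusted p under 0.05), was called at 6 with a pseudocount of 1, at 1 with all 12 libraries and at 2 to 9 without 1 WT library. Without EloA_null_B10 replicate 1, an alternative chosen after seeing the data, the counts were 3215 higher, 3021 lower and 4 for the genotype difference. With the replicate block the counts were 3213 and 3046, 2315 and 2515 after length adjustment, and 2. Same-numbered libraries had deviations correlated at 0.09 in WT and 0.01 in the libraries labelled EloA null, over 2 pairs each, so they share only a number. Over all named genes and alternatives 0 values reversed, and 50 values before and 38 after length adjustment lost their call. The cause of these changes was not tested. Depth limits the genes with under 100 reads.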

Other observations

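After 5 min of recovery the BrU pulse was 5 min, so these values are set beside the others with no comparison. Dtnbp1 was at 43.9 and 45.9 RPKM in the 2 WT libraries, Gpr75 at 11.2 and 14.8, Hsp90aa1 at 99.4 and 111, Sox2 at 25.8 and 29.1, and Malat1 at 764 and 688.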
